A study of Macaca mulatta with 8 samples.

Results

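The oligodendrocyte lineage genes OLIG1, OLIG2, SOX10, SOX8, PDGFRA, CSPG4, NKX2-2, BCAS1, EGFR and LHFPL3 were followed through chromatin accessibility in rhesus macaque (Macaca mulatta) cortex cells. Their loci were chosen by gene name, each as the gene body and the 5000 bp upstream in the NCBI annotation of Mmul_10, and every merged region there that held a stage peak was taken. All 10 genes were found, and their loci held 55 of the 72358 such regions in the series. Open DNA was read by ATAC-seq, an assay based on the cuts of the transposase Tn5. The cells came from cryopreserved fetal cortex, with no treatment or genetic change in the labels, at post-conceptional days 50, 60, 80 and 85 (E50, E60, E80 and E85). They were dissociated and grown on coated plates in a medium for progenitors with FGF2, EGF and BDNF, so the values describe cultured cells and not the tissue itself. Each stage had 1 biological sample and 2 technical libraries of it, 8 libraries in all, and the peak names carry the stage but no library. No stage therefore has a replicate, no test between stages was possible, and all comparisons below are descriptions of the 4 peak sets. The sets differed in size, with 19833 peaks for E50, 61956 for E60, 60278 for E80 and 30701 for E85, so fewer calls at E50 or E85 cannot be told apart from a smaller set. Only E60 and E80 had sets of similar size. Intervals on shares are exact Clopper-Pearson 95% intervals and cover counting error only.

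Oligodendrocytes make the myelin of the central nervous system and arise from dividing precursor cells. In the forebrain the earliest precursors come from ventral domains under hedgehog signalling, and later ones from the cortex itself. OLIG1 and OLIG2 are basic helix-loop-helix factors of this lineage, OLIG2 being required to specify precursors. SOX10 and SOX8 are related SOX factors, SOX10 driving myelin genes, and NKX2-2 is a homeodomain factor of differentiating precursors. PDGFRA, the receptor for PDGF-A, and CSPG4, the NG2 proteoglycan, mark the precursors. EGFR, a receptor for EGF, is found on glial and other intermediate progenitors. BCAS1 marks oligodendrocytes that begin to myelinate, and LHFPL3 encodes a tetraspan membrane protein used as a precursor marker.

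The stages called at the member loci differed from gene to gene. SOX8 was called in full at every stage, the OLIG2 start at every stage, and the OLIG1 start at all stages but E50. The starts of EGFR, CSPG4 and LHFPL3 were called at E60 and E80 alone, and that of NKX2-2 at E80 alone. Of all regions within 1000 bp of a protein-coding or lncRNA start, 51.3% were called at all 4 stages. All stages but E50 were called in 13.8% of them, E60 and E80 alone in 20.7% and E80 alone in 3.08%. No region with a stage peak lay within 1000 bp of the start of SOX10 or BCAS1. A start with a region of a stage within 1000 bp is called a promoter call here. The stage's own peak may lie elsewhere in the merged region. Such calls were made for 3 of the 10 genes at E50 (SOX8, OLIG2 and PDGFRA), against 44.3% of all protein-coding genes. At E60 they were made for 7 members (64.7% of all genes), at E80 for 8 (63.2%) and at E85 for 4 (53.0%). With 10 genes the intervals were wide, from 6.67% to 65.2% at E50 and from 44.4% to 97.5% at E80, and each held the share of all genes. The absence of any promoter call at SOX10 and BCAS1 was shared by 33.1% of protein-coding genes. Every member locus held at least 1 region, against 77.3% of all loci.

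**Figure D1:**
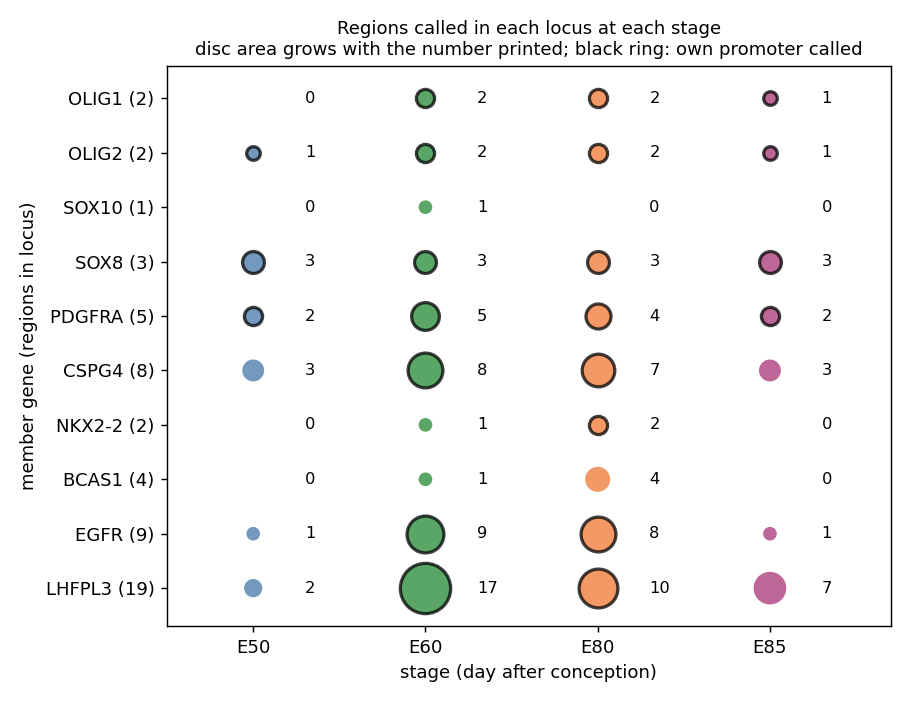
Number of merged regions called in each member locus (rows, with the total in brackets) at each stage (columns), printed beside a disc whose area grows with it; a black ring marks a stage at which the gene's own promoter was called. SOX8 has 3 regions at every stage, BCAS1 1 at E60 and 4 at E80, and LHFPL3 17 at E60 and 10 at E80.

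OLIG1 and OLIG2 lie side by side on chromosome 3, both on the minus strand, with starts 44129 bp apart. OLIG2 (chr3:13524548-13527904) had 1 of its regions called at E50, then 2 (E60), 2 (E80) and 1 (E85). Its promoter region, chr3:13525220-13528934, touched both exons of the gene and was called at all 4 stages, with 2 peaks at E80 and 1 at each other stage. At 3715 bp it was far wider than the median of all promoter regions, 1039 bp. OLIG1 (chr3:13481465-13483775), a gene of 1 exon, had no region at E50, 2 at both E60 and E80 and 1 at E85. Its promoter region, chr3:13482093-13484077, was called at E60, E80 and E85. Each gene also had an upstream region called at E60 and E80 alone, 2964 bp from the OLIG1 start and 1826 bp from the OLIG2 start. The pair thus differed in the E50 call of the promoter region, which held a peak at OLIG2 and none at OLIG1. Where in the 3715 bp the E50 peak lay was not read.

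The 200 bases upstream of the OLIG2 start, inside the region called at all 4 stages, are given on the gene's strand. In this and later sequences, read from Mmul_10, capitals mark matches to the searched motifs, and all sequences after this one are on the plus strand. Letters were searched on both strands. Those of SOX factors were ACAAAG with the variant ACAATG, and those of the OLIG E-box CATATG with the variant CAGATG. AP-1 was read as TGACTCA and another E-box as the palindrome CAGCTG. TEAD was read as ACATTCC, NFI factors by the letters TTGGCA, homeobox factors as TAATTA and NKX2 factors as CACTTGA. TCF/LEF was read as CTTTGAA, GLI as ACCACCCA and RFX by the letters GTTGCCA. Some matches share letters: CATATG and TGACTCA may overlap, as may other pairs. The OLIG2 window held no match, and its GC content was 67.5%.
OLIG2 upstream, chr3:13527905-13528104: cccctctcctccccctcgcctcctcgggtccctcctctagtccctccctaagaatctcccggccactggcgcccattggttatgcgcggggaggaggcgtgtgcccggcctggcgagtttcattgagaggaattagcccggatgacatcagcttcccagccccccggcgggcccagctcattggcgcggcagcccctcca

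SOX8 and SOX10 stood at opposite ends. SOX8 (chr20:990391-995600, plus strand) had 3 regions, and all 3 were called at E50, E60, E80 and E85. The regions were chr20:985180-986066 upstream, chr20:988926-991640 over the start and exon 1, and chr20:991719-993578 over exons 2 to 3. At 29.4 regions per 100 kb, its locus was the most densely called of the 10. The region over the start also held the start of a lncRNA gene, so it cannot be assigned to SOX8 alone. SOX10 (chr10:13553621-13566203, plus strand) had 1 region, called at E60 and not at E50, E80 or E85. That region, chr10:13551393-13552564, ended 1057 bp before the SOX10 start, just outside the 1000 bp limit, and held the annotated start of another protein-coding gene, LOC107000660. The SOX10 gene body held no stage peak at any of the 4 stages, and its start lay in a region with a lifted peak alone. The middle 200 bases of this only SOX10 region are printed on the plus strand. They held no motif match.
SOX10 upstream region, E60 alone, chr10:13551878-13552077: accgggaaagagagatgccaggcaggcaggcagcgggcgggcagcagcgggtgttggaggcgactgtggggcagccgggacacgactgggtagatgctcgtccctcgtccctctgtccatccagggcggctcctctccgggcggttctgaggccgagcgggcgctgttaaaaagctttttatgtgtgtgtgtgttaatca

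NKX2-2 (chr10:44990403-45002109, plus strand) had no region at E50 or E85, 1 at E60 and 2 at E80. The region over its start, chr10:44990273-44992322, was called at E80 alone. It merged 1 E80 peak with 3 lifted peaks, so its edges may not be those of the E80 peak. The other region, chr10:44996587-45000788, spanned exons 2 to 3 and was called at E60 with 1 peak and at E80 with 3. It lay 21 bp from the start of a lncRNA gene and counts as a promoter region for that reason. NKX2-2 was the only member with a promoter call at E80 and none at E60. The bases from the edge of the E80 region to the NKX2-2 start, chosen after the call was seen, had a GC content of 74.6% and held 1 AP-1 match. No AP-1 match lay within 150 bp of the centre of this region. Over whole promoter regions, AP-1 letters were in 1 of 11 of the members (9.09%), against 14.3% of all.
NKX2-2 upstream, E80 alone, chr10:44990273-44990402: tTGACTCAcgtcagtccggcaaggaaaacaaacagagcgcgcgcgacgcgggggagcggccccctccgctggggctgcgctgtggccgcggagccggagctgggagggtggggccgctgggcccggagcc

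**Figure D2:**
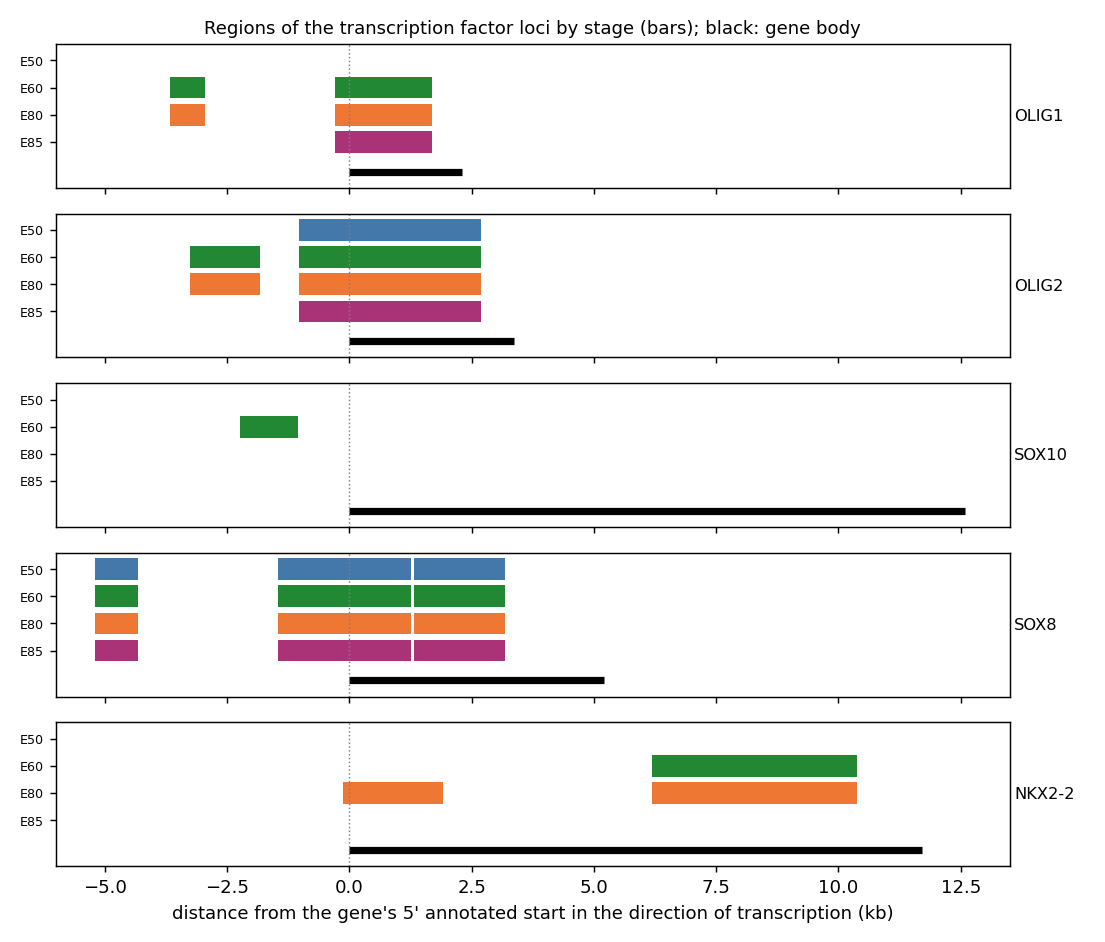
Merged regions of the 5 transcription factor loci, as bars at their distance in kb from the gene's start, in a lane for each stage at which they were called; the black line is the gene body. A bar spans the merged region, not the stage's own peak. SOX8 is filled in every lane, while SOX10 has a single bar at E60 and NKX2-2 a start region at E80 alone.

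PDGFRA (chr5:79342993-79407696, minus strand) had 2 of its regions called at E50, then 5 (E60), 4 (E80) and 2 (E85). The 2 regions called at all 4 stages were not over the start itself. Of these, chr5:79408006-79410208 began 310 bp upstream of the start, and chr5:79402217-79404303 lay in intron 1. The region over the start and exon 1, chr5:79406242-79407882, was called at E60 and E80 alone, with 2 peaks and 1 peak. A further intron 1 region, chr5:79404659-79405394, was called at E60 alone. The region chr5:79364228-79365008, over exon 13, was called at E60 and E80 alone. Regions called at all stages and at E60 alone lay within a few kilobases of each other in the same intron. The middle 200 bases of both intron 1 regions follow, plus strand, to set these neighbours side by side. The all-stage window had a GC content of 72.5% and no motif match, and the E60-alone window 58.0% and a CAGCTG.
PDGFRA intron 1, all stages, chr5:79403160-79403359: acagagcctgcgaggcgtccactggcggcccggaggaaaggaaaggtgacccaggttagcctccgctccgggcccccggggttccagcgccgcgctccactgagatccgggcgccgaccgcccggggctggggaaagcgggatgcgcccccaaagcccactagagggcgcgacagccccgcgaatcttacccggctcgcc
PDGFRA intron 1, E60 alone, chr5:79404926-79405125: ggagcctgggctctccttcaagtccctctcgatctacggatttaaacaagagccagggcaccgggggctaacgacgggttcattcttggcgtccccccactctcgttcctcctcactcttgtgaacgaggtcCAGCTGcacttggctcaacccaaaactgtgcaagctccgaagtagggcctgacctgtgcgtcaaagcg

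CSPG4 (chr7:52809297-52849703, minus strand) had 3 of its regions called at E50, then 8 (E60), 7 (E80) and 3 (E85). Its 3 all-stage regions were all intronic and lay 10352, 28432 and 30996 bp from the start. Its promoter region, chr7:52849565-52849884, was 320 bp wide and was called at E60 and E80 alone. Of the other 4 regions, all in intron 1, 3 were called at E60 and E80 alone and chr7:52833122-52833362 at E60 alone. CSPG4 thus had distal calls at E50 and E85 without a promoter call at either. The middle of the all-stage region nearest to the start held 2 AP-1 matches.
CSPG4 intron 1, all stages, chr7:52838872-52839071: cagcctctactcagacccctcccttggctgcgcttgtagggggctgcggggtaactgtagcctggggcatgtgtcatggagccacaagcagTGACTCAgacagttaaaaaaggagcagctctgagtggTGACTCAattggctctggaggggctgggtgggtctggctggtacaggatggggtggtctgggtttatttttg

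EGFR (chr3:60060391-60254099, minus strand) had 1 of its regions called at E50, then 9 (E60), 8 (E80) and 1 (E85). The only region of E50 and E85, chr3:60206005-60206640, lay in intron 1 and was called at all 4 stages. The promoter region, chr3:60252660-60254614, and 6 others were called at E60 and E80 alone. The remaining region, chr3:60077675-60078441, over exon 22, was called at E60 alone. With 7 of its 9 regions called at E60 and E80 alone, EGFR followed this pattern more closely than any other member with more than 2 regions. The pattern was in 29.4% of all regions, and this ranking was made after the values were seen. EGF, a ligand of the receptor, was in the medium at every stage, and its part in these calls was not tested. The AP-1 letters were within 150 bp of the centre of 5 of the 8 distal EGFR regions, against 25.7% of all distal regions, a description made after the values were seen. The all-stage intron region, printed on the plus strand, held SOX, OLIG E-box, AP-1 and NFI matches, with the E-box and AP-1 letters overlapping.
EGFR intron 1, all stages, chr3:60206222-60206421: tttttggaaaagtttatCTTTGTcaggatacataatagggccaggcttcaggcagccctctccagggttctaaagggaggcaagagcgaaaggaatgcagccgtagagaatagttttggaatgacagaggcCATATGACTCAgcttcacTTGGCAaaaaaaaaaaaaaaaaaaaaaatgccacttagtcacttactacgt

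BCAS1 (chr10:89151787-89278297, minus strand) had no region at E50, 1 at E60, 4 at E80 and none at E85. All 4 were intronic and distal. The region of both stages, chr10:89234420-89234945, lay in intron 4. The 3 others, chr10:89204937-89205170, chr10:89168456-89168803 and chr10:89157203-89157557, were called at E80 alone and were 234 to 355 bp wide. No other member had more than 1 region called at E80 alone. Over all members this pattern was in 4 of 55 regions (7.27%, interval 2.02 to 17.6), against 13.3% of all regions. None of the 3 held the AP-1 letters near its centre, while 43.7% of all distal regions called at E80 alone did (3972 of 9083). With 3 regions the interval ran from 0% to 70.8%. The middle of the E80-alone region nearest to the start, chosen after its call was seen, held 1 SOX match.
BCAS1 intron 4, E80 alone, chr10:89204953-89205152: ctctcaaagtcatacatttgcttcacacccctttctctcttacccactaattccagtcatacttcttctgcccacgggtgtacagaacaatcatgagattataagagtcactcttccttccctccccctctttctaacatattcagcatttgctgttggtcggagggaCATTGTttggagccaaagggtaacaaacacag

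LHFPL3 (chr3:130621993-131197609, plus strand) is the longest member, and its locus held 19 regions, more than 98.9% of protein-coding loci held, yet 3.27 per 100 kb. It had 2 of its regions called at E50, then 17 (E60), 10 (E80) and 7 (E85). The promoter region, chr3:130621376-130623112, was called at E60 and E80 alone. Of the other 18 regions, 1 lay upstream and 17 in introns 1 and 2. Among all 19, 7 were called at E60 alone (36.8%, interval 16.3 to 61.6), against 16.4% of all regions in the series. None was called at E80 alone (interval 0% to 17.6%), against 13.3% of all. A further 5, the promoter among them, were called at E60 and E80 alone, 3 at every stage but E50, 2 at all 4 stages and 2 at E85 alone. LHFPL3 was the only member with E85-alone regions, 2 of its 19 (10.5%, interval 1.3 to 33.1), against 1.34% of all regions. Each of these intervals held the share of all regions. As 18 of the 19 were distal, the shares of all distal regions are also given: 19.0% (E60 alone), 16.3% (E80 alone) and 1.54% (E85 alone). The E85-alone regions were chr3:130660870-130661309 in intron 1 and chr3:131183670-131189756 in intron 2, the latter 6087 bp wide with 1 stage peak and 3 lifted peaks. The windows below show the region nearest to the start that was called at all stages, at E60 alone and at E85 alone. The region of all stages held a TCF/LEF match, the E60-alone region a SOX match and the E85-alone region none.
LHFPL3 intron 1, all stages, chr3:130954982-130955181: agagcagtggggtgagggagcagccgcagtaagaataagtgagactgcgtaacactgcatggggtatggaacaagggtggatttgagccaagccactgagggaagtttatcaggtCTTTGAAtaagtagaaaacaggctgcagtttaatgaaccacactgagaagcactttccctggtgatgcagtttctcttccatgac
LHFPL3 intron 1, E60 alone, chr3:130635029-130635228: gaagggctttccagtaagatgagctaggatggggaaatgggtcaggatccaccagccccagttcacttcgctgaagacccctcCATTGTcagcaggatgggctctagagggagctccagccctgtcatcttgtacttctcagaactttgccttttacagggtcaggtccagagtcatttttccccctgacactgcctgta
LHFPL3 intron 1, E85 alone, chr3:130660989-130661188: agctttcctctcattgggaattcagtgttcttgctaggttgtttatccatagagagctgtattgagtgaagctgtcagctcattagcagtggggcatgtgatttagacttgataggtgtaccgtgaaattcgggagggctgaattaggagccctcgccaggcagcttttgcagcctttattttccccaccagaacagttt

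**Figure D3:**
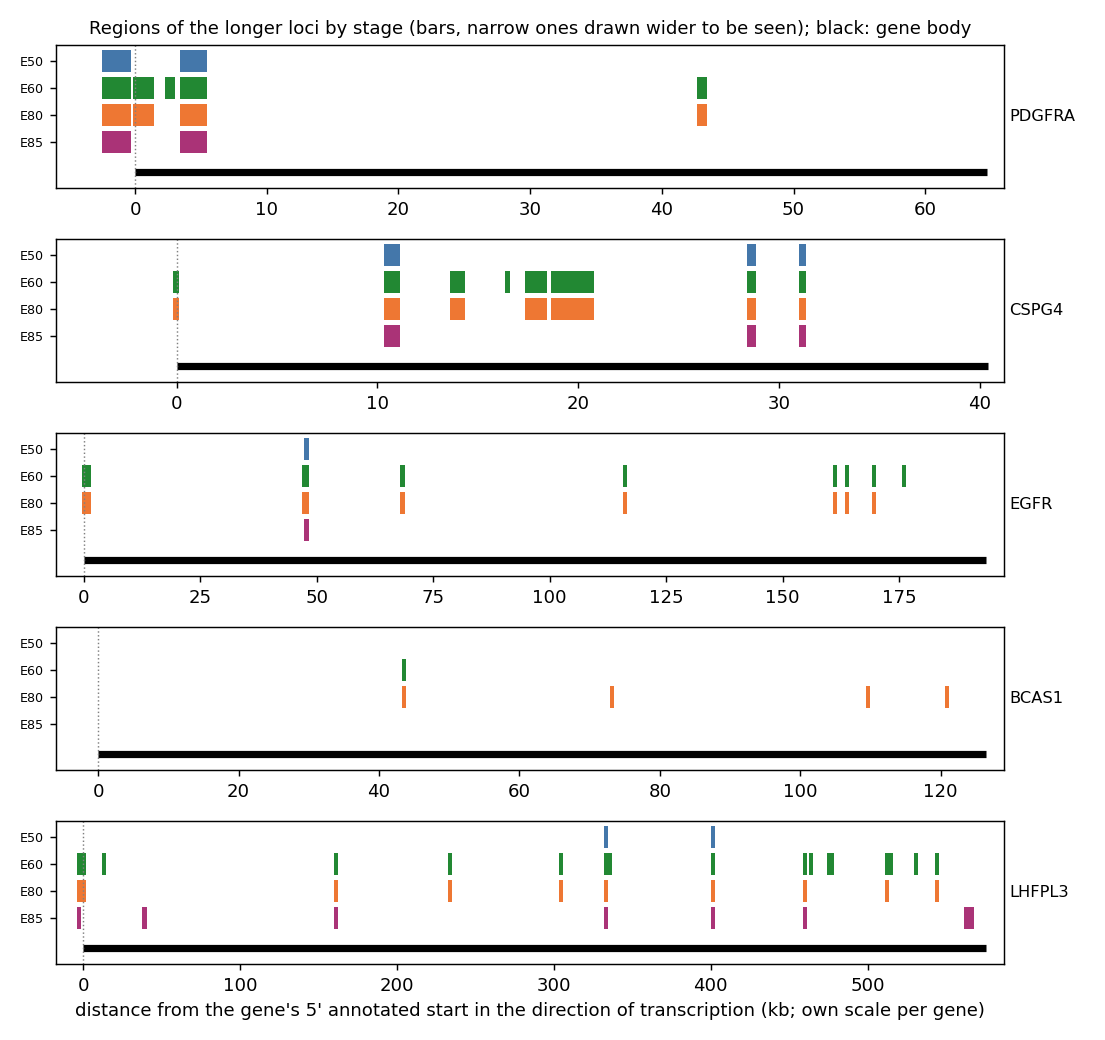
Merged regions of the 5 longer loci, as bars at their distance in kb from the gene's start, in a lane for each stage at which they were called; each gene has its own scale and narrow bars are drawn wider. EGFR has 1 region at E50 and E85 against 9 at E60, BCAS1 3 regions at E80 alone, and LHFPL3 7 at E60 alone.

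The calls over the 55 member regions were set beside those of all regions in the series. E50 peaks were in 12 of the 55 (21.8%, interval 11.8 to 35.0), against 26.0% of all regions. E60 peaks were in 49 (89.1%, 77.8 to 95.9), against 82.8%. E80 peaks were in 42 (76.4%, 63.0 to 86.8), against 80.3%, and E85 peaks in 18 (32.7%, 20.7 to 46.7), against 40.1%. In the series, 17025 of the 18819 regions with E50 peaks were called at all 4 stages. So were all 12 member regions of E50, which made up 21.8% of member regions, against 23.5% of all regions. A further 22 were called at E60 and E80 alone (40.0%, 27.0 to 54.1), against 29.4% of all regions. All of these shares had intervals that held the share of all regions. LHFPL3 weighed on the E80 share: without it, E80 was called in 32 of 36 regions (88.9%), the same number as E60.

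Between the sets of similar size, 11 member regions were called at E60 and not E80 and 4 at E80 and not E60. Of the regions called at 1 stage of this pair, E60 thus held 73.3% (interval 44.9 to 92.2) and E80 26.7% (7.79 to 55.1), against 53.9% and 46.1% in the series. LHFPL3 gave 7 of the 11, and without it the counts were 4 and 4. Early-only regions, with peaks of E50 or E60 but not of E80 or E85, were these same 11 (20.0% of member regions, against 16.8% of all). Late-only regions, with peaks of E80 or E85 but not of E50 or E60, numbered 6 (10.9%, against 15.6%). They were the 3 of BCAS1, 2 of LHFPL3 and 1 of NKX2-2. SOX10, PDGFRA, CSPG4 and EGFR had 1 early-only region each and no late-only one, and OLIG1, OLIG2 and SOX8 had neither.

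**Figure D4:**
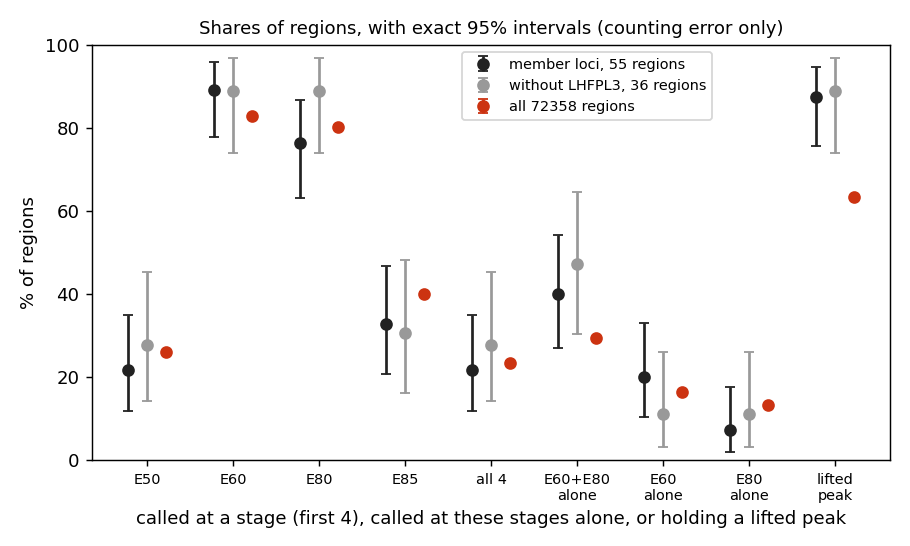
Percent of regions called at each stage, called at the named stages alone, or holding a lifted peak, for the 55 member regions (black), the 36 without LHFPL3 (grey) and all 72358 regions (red); bars are exact 95% intervals and cover counting error only. The stage shares of the members hold the values of all regions within their intervals, while the share with a lifted peak, 87.3%, lies above the 63.3% of all regions.

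By position, 11 member regions were promoter regions, within 1000 bp of a start of any protein-coding or lncRNA gene, and 44 were distal, 37 of these in introns without touching an exon. Member distal regions were wider than others, with a median of 577.5 bp against 400 bp, and had a similar GC content (50.2% against 49.6%). Of the 44, 37 also held peaks lifted from sets that the labels do not define (84.1%, interval 69.9 to 93.4), against 56.1% of all distal regions. Wide regions held lifted peaks more often in the series as a whole. Among distal regions of 400 bp or more the counts were 28 of 29 members (96.6%, interval 82.2 to 99.9) and 76.3% of all, and among narrower ones 9 of 15 (60.0%, 32.3 to 83.7) and 35.7%. Lifted peaks can themselves widen a merged region, so width and this share are not independent. Over promoter and distal regions together, 48 of 55 held a lifted peak (87.3%), against 63.3% of all regions. The limits of the rule fell between near neighbours. The farthest region taken had its near edge 4325 bp upstream of SOX8, and the nearest outside lay 5136 bp upstream of OLIG1 and was called at E60 and E80.

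Motif letters were counted in the 44 distal regions and in all 55607 distal regions. SOX letters were within 150 bp of the centre in 19 of 44 (43.2%, interval 28.3 to 59.0), against 40.4%, and the OLIG E-box in 12 (27.3%, 15.0 to 42.8), against 26.5%. AP-1 was in 9 (20.5%, 9.80 to 35.3), against 25.7%, and CAGCTG in 8 (18.2%, 8.19 to 32.7), against 25.9%. The NKX2 letters were in 5 (11.4%, 3.79 to 24.6), against 4.09%. The homeobox letters were in 6 (13.6%), against 10.1%, TCF/LEF in 5 (11.4%), against 6.79%, and NFI in 12 (27.3%), against 23.4%. TEAD was in 3 (6.82%, against 6.34%), RFX in 4 (9.09%, against 6.12%) and GLI in 1 (2.27%, against 1.88%). Each interval held the share of all distal regions. By gene, SOX letters were in 11 of the 18 distal regions of LHFPL3 and 5 of the 8 of EGFR. They were in 2 of the 4 of BCAS1 and 1 of the 7 of CSPG4. None of the 3 of PDGFRA, the 2 of SOX8 or the 1 each of OLIG1 and OLIG2 held them. A difference between genes was not tested at these small counts, and GC content was not adjusted for. A match is a run of letters and not a bound site.

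Related genes of the same pathways were read by counts from lists. Their loci differ in length, which was not adjusted for, and a list's median is set beside 1 region per protein-coding gene and 3.5 per member. The 12 genes of oligodendrocyte precursors other than the members had a median of 9, and the stages E50, E60, E80 and E85 called 27, 130, 100 and 38 of their 146 regions. Over all protein-coding loci the same stages called 16506, 43548, 42201 and 23573 of 50999 regions. In 9 of them early-only regions outnumbered late-only ones and in 1 the reverse, with 43 against 15 regions in all. Over all protein-coding loci the early-only and late-only regions numbered 7493 and 6667, and 3201 genes had more of the former and 2905 more of the latter. PTPRZ1, a receptor-type phosphatase gene of precursors and radial glia, had 12 regions at E60 and 5 at E80, with 7 early-only and no late-only. XYLT1, which starts the sugar chains of proteoglycans, had 6 early-only against 2 late-only regions. PCDH15, a protocadherin gene, was the gene with more late-only regions, 3 against 1.

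Genes of differentiation and myelin held fewer regions per gene than the precursor list, with lengths again not adjusted for. The 19 had a median of 2 regions, 16 had at least 1, and E50 called 8 of their 60 regions, E60 53, E80 47 and E85 19. Early-only regions numbered 11 and late-only ones 5. In 6 genes the former outnumbered the latter, in 2 the reverse held, and in 11 the counts were equal. Promoter calls were made for 2 (E50), 9 (E60), 8 (E80) and 4 (E85) of the 19, beside 44.3%, 64.7%, 63.2% and 53.0% of all protein-coding genes. TCF7L2, a WNT effector of differentiating oligodendrocytes, had 5 early-only against 2 late-only regions, and MBP, the myelin basic protein gene, 2 and 1 among 10 regions. MBP had no promoter call at any stage in this annotation, nor had MYRF, the regulator of myelin genes. Such an absence was shared by 33.1% of all protein-coding genes, and CNP and TCF7L2 of the same list had promoter calls at all 4 stages. At FA2H, which makes hydroxylated myelin lipids, and at MOBP, a myelin protein gene, 1 region was late-only and 0 were early-only. ASPA, MOG and OPALIN held no region, beside 77.3% of all protein-coding loci that held at least 1.

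Other ligands and receptors of the PDGF and EGF families, not all of which bind PDGFRA or EGFR, had 17 early-only and 14 late-only regions in 15 loci, with a median of 4 regions. NRG1, a ligand of ERBB receptors, had 8 early-only against 5 late-only regions, and PDGFC 1 against 0. PDGFA, the ligand of PDGFRA, had no region at E50, then 3 (E60), 5 (E80) and 1 (E85), with 3 late-only regions against 1. TGFA, a ligand of EGFR, likewise had 3 late-only regions against 1. Hedgehog genes and regulators of OLIG2 had 23 early-only and 7 late-only regions in 12 loci, with a median of 4. GLI3, a transcription factor of hedgehog signalling, had 9 against 1, DLX1 3 against 0, and SMO, the hedgehog transducer, 0 against 1. Progenitor and neuronal SOX factors (SOX2, SOX3, SOX4, SOX9 and SOX11) had 25 regions at E60 and 21 at E80, with 3 early-only regions and none late-only. SOX2 had 12 regions at E60 and 10 at E80. SOX11 had 3 and 2.

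Promoter calls at markers of other cells were counted to place the members. All 5 radial glia markers had a promoter call at every stage, and neuronal markers had 2, 5, 4 and 2 of 5 at E50, E60, E80 and E85. Interneuron markers had 1, 3, 3 and 1 of 4, and astrocyte markers 3 of 4 at every stage. DLX5 and AQP4 were the interneuron and astrocyte markers without a promoter call at any stage. None of the 4 microglia markers (P2RY12, CX3CR1, AIF1 and CSF1R) had a promoter call at any stage. Endothelial markers had 0, 2, 1 and 0 of 4, and mural cell and fibroblast markers 1, 2, 2 and 2 of 6. PECAM1, CDH5, RGS5, COL1A2, LUM and DCN had no promoter call at any stage, a state shared by 33.1% of all protein-coding genes. A locus without a promoter call may still hold regions. AQP4 held 2 at every stage and CSF1R 1, 2, 2 and 1, while CX3CR1 and CDH5 held none. Neuronal, interneuron and endothelial calls were more numerous at E60 and E80 than in the smaller peak sets, as were the promoter calls of all protein-coding genes given above. The part of the mix of cells in the member calls was not tested, and in a bulk culture a change in the share of a cell type and a change within it cannot be told apart.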

How the data were processed

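ATAC-seq libraries of 4 macaque cortex cultures were read from 1 deposited table of 112696 merged regions. Reads were handled with cutadapt 4.4, Bowtie2 2.5.1 and SAMtools 1.15 on rheMac10 (Mmul_10 at NCBI), per the submitters' processing notes. Neither the peak caller, nor its threshold, nor any pooling of the libraries is given in the sources used. The table has no header. The authors' deposited peak names, each with a stage code, were the measurement used, together with region bounds, and 8 columns of unnamed values could not be matched to libraries and were not used, so depth per library is unknown. A further 40338 regions held lifted peaks alone and were left out. Starts were read as counted from 0, as the lowest is 0, and are given 1-based.

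A region was called at a stage if it held at least 1 nativeFiltered peak of it. It was placed in a locus by an overlap of at least 1 bp, in gene models of 21122 protein-coding genes. Exons and introns are numbered on the longest transcript. Motifs were searched in Mmul_10 within 150 bp of region centres. Windows printed at starts are the bases just upstream, to leave out transcribed sequence, and other windows are region centres. The members and lists were chosen with earlier results of these data known. All 10 members are named, and the rule named by position their regions within 1000 bp of a start, those nearest to a start of the all-stage distal, early-only and late-only kinds, and any of E50 or E85 without E60 and E80. Other regions were named once their values were known. From each list the 2 genes with the largest excess on the early-only and on the late-only side are named, ties going to more regions and then to the earlier name, and other genes were picked once their values were known. Overlap and distance code was tested on simulated data. Alternatives changed the locus, region width, unit, members, cultures, promoter distance and motif window. Python 3.11.15, pandas 2.3.3 and SciPy 1.17.1 were used.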

Additional observations from a re-analysis of the deposited data

Results flagged for a closer look

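Regions that hold lifted peaks and no stage peak were outside all comparisons, and the member loci held 34 of them. They are listed because they were left unused, not because they were many: they made up 38.2% of the 89 regions of both kinds in these loci (interval 28.1 to 49.1), against 35.8% of the 112696 regions of the table. EGFR held 15 and LHFPL3 7, CSPG4 and PDGFRA 3 each, SOX10 2, and OLIG2, SOX8, NKX2-2 and BCAS1 1 each. OLIG1 held none. The SOX10 start itself lay in such a region, chr10:13553403-13553734, with 1 lifted peak. At EGFR and SOX10 these regions outnumbered the regions with a stage peak, which were 9 and 1.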

How the results depend on the processing

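The 12 main shares were recomputed under 49 alternatives, of which 44 gave a value within the exact interval of the reported share. Without LHFPL3, the share of member regions called at E80 rose from 76.4% to 88.9%. The late-only share, 35.3% of 17 early-only and late-only regions (48.3% over all regions), was 100.0% of 32 without the E60 culture and 5.71% of 35 without the E80 culture, since leaving out a stage by construction makes its shared regions early-only or late-only. It was 50.0% of 8 without LHFPL3. The SOX letters were in 25.0% of member distal regions within 75 bp of the centre (24.8% of all distal regions), and the OLIG E-box in 47.7% over the whole region (37.6% of all), as window length sets how many letters are searched. At a promoter distance of 2000 bp SOX10 gained a call at E60, for 8 of 10 genes. Stage shares in units of peaks were not run, since each peak belongs to 1 stage. No paired analysis was possible because the peak names carry a stage and no library, and libraries could not be left out in turn for the same reason. Depth per library is unknown, so an absent call says only that no peak passed the threshold, which is itself unknown.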

Other observations

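Between the OLIG1 locus and OLIG2 lie 35772 bp that belong to neither locus by the rule. They held 4 regions, all distal, all called at E60, 3 also at E80 and none at E50 or E85. Of all distal regions in the series, 79.4% were called at E60, 77.4% at E80, 17.7% at E50 and 31.7% at E85, so nothing particular to this interval is read from the counts. The widest, chr3:13488911-13490049, lay 5136 bp upstream of the OLIG1 start and was called at E60 and E80. The others, from the OLIG1 side, were chr3:13495635-13495941 at E60 alone, and chr3:13506483-13506685 and chr3:13513856-13514322 at E60 and E80.

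Within 50000 bp on both sides of a locus, the loci differed in how many called regions stood around them. CSPG4 and BCAS1 had 12 regions in these flanks, SOX10 10, OLIG1 and SOX8 9 and OLIG2 8, in which the neighbouring OLIG gene is counted. PDGFRA and EGFR had 1, and NKX2-2 and LHFPL3 2. SOX10, with 1 region in its locus, thus had 10 in its flanks. Which gene a flanking region serves is not known from these data.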
